A study of Mus musculus with 6 samples.

Results

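The serpins are a family of protease inhibitors that share one fold, and their genes were described here in the mouse heart. The members were chosen by name, as the protein-coding genes of the deposited table whose symbol begins with Serpin. The family was taken up with the difference between these same 6 libraries already known, so its values in that comparison are given as a description of the family. The text covers 62 such genes, called the members, of 46452 rows and 22186 protein-coding rows. A member with a mean under 0.5 FPKM (fragments per kilobase of gene, scaled by library as the authors did) over the 6 libraries was counted as low. That left 15 expressed members and 47 low ones. Of the low members 29 had at least 1 read in some library and 18 had none. The expressed members nearest to the threshold were Serpina3f, with a mean of 1.43 FPKM, and Serpinb8, with 1.49 FPKM, and the low member nearest to it was Serpina3i, with 0.428 FPKM. All 15 expressed members also had a mean of at least 1 FPKM and entered the test, whereas 2 of them, Serpinb1c and Serpinb9b, did so only through the CKO-labelled samples.

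The libraries were made from heart tissue of mice 10 days old, 3 from Nat10 flox/flox mice (loxP-flanked alleles) and 3 from mice labelled Nat10-CKO, a name for conditional loss of Nat10, which encodes an RNA acetyltransferase. They are called flox/flox and CKO-labelled samples here. The labels name the replicates of each group as independent biological ones, and the Cre driver, the deleted exons, the sex of the mice and any pooling of hearts do not appear in the sources used here. Each library had 31155521 to 38051266 reads assigned to genes, and the step of 1 read per kb was 0.0246 to 0.0316 FPKM. Mitochondrial genes took 16.55% to 18.35% of the reads in the flox/flox samples and 7.56% to 9.26% in the others.

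Nat10 (gene ID 98956, GRCm39 chromosome 2, 103551603 to 103593292, minus strand) had levels of 3.75, 4.18 and 4.71 FPKM in the flox/flox samples and 8.28, 8.66 and 10.2 FPKM in the CKO-labelled samples. The targeted gene was therefore higher where the label names a knockout, by 2.14-fold with a limma adjusted p of 0.00142. Every direction below refers to the labels, and the whole-gene values cannot separate reads of deleted and intact exons.

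A serpin offers its reactive centre loop as bait, and a protease that cuts the loop is carried across the molecule and trapped in a covalent complex. The secreted members hold back proteases of clotting, plasminogen activation, complement and inflammation, while most clade B members stay inside cells and guard them against granule and lysosomal proteases. Some members keep the fold but inhibit nothing, such as Serpinh1, which is the collagen chaperone HSP47, and Serpinf1, which is pigment epithelium-derived factor. In the heart, serpins meet the proteases of injury, inflammation and matrix turnover.

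Heart muscle markers were abundant in all 6 libraries, with a summed level of 10263 to 20544 FPKM for 8 genes, although the atrial light chain gene Myl7 reached at most 0.552 FPKM. In the first flox/flox sample 10 neuronal markers summed to 600.5 FPKM, against 8.48 and 14.2 FPKM in the other flox/flox samples and 17.4 to 43.0 FPKM in the CKO-labelled samples. Its 7 Schwann cell markers summed to 105 FPKM, against 5.28 to 6.61 FPKM elsewhere, and the neuronal marker Chat was at 0 in every library. In the second flox/flox sample 8 T or NK cell markers summed to 24.1 FPKM, against 3.29 to 5.75 FPKM elsewhere. All 8 endothelial markers fell, from a sum of 367 to 433 FPKM down to 219 to 230 FPKM. In whole tissue, fewer cells of a type and less RNA per cell cannot be told apart. The values of single libraries are therefore given below.

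Of the 15 expressed members 6 were higher in the CKO-labelled samples at a limma adjusted p under 0.05, 0 were lower and 9 were not called. At an unadjusted p under 0.05, 8 were higher and 2 were lower, and voom called 6 higher and 0 lower. Of all 11996 genes tested, 40.5% were called, made up of 24.4% higher and 16.0% lower. The 6 were Serpina3n, Serpinf1, Serpinb1c, Serpinb9, Serpinb9b and Serpinb6b, and 4 of them had a mean of at least 1 FPKM in both groups. The median log2 fold change of the 15 was 0.48, against 0.03 over all genes tested. The 15 include Serpinb1c and Serpinb9b, which entered the test only through the CKO-labelled samples. All 3 CKO-labelled samples lay above all 3 flox/flox samples for 7 members and below them for 1, and the groups overlapped for 7. Over all genes tested the groups were separate upward for 31.5% and downward for 24.4%. Counts for the gene lists below are to be read beside these shares of all genes.

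The count of 6 fell to 3 without the third flox/flox sample, where 2 members, Serpina3g and Serpini1, were called lower. Without the first flox/flox sample and the first CKO-labelled one together it was 6, but with Serpinf1 lost and Serpinb6a gained. The same exchange occurred without the first flox/flox sample alone.

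**Figure D1:**
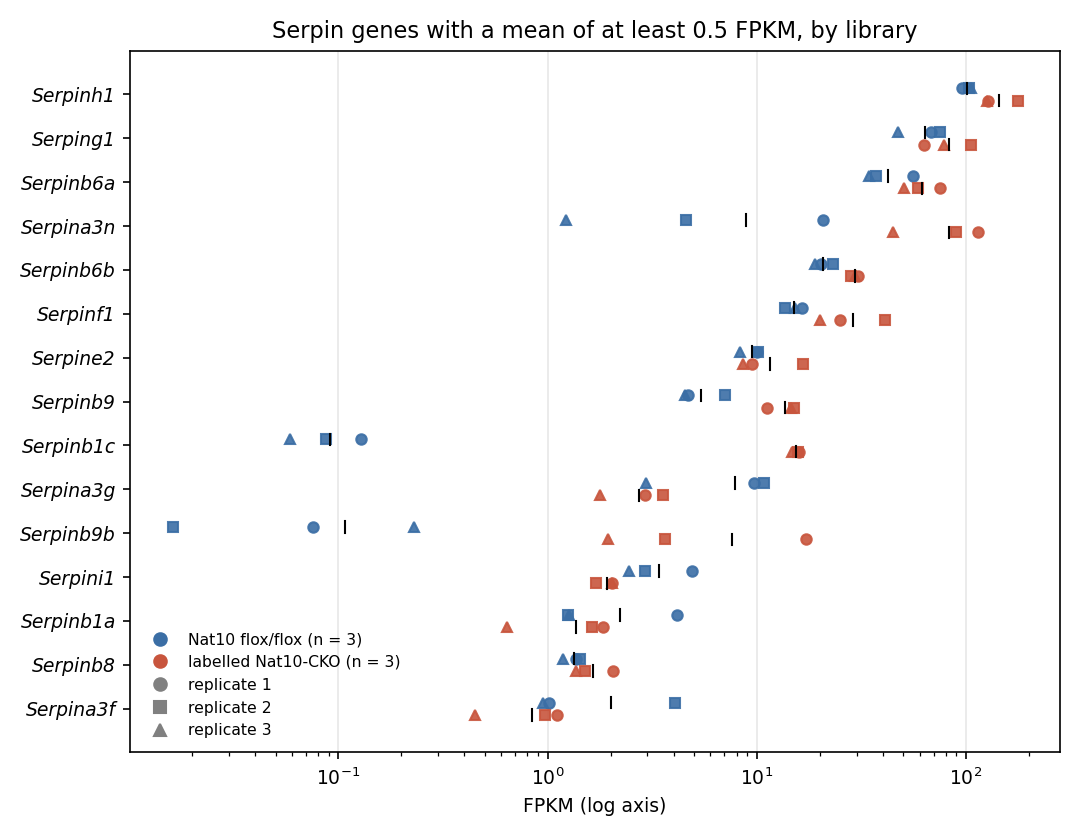
Level of each expressed Serpin gene (rows) in each library on a log axis of FPKM, with colour for the group and marker shape for the replicate number. Serpinh1 was the most abundant member in every flox/flox sample, and Serpinb1c was at most 0.127 FPKM in those libraries and at least 14.7 FPKM in the others.

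**Figure D2:**
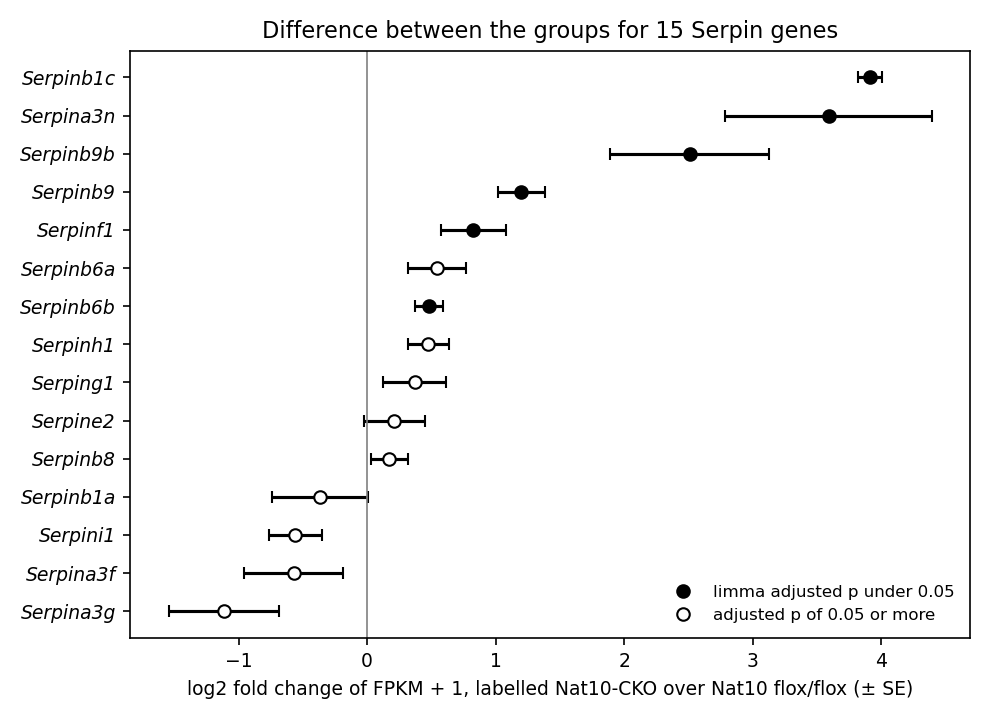
Log2 fold change (log2 of FPKM + 1, CKO-labelled over flox/flox samples) with its SE for the 15 expressed members, filled where the limma adjusted p was under 0.05. The 4 members left of 0 are Serpina3g, Serpina3f, Serpini1 and Serpinb1a, all open.

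The summed level of the 62 members was 314, 296 and 245 FPKM in the flox/flox samples and 501, 563 and 397 FPKM in the CKO-labelled samples. The makeup of the sum also differed. Serpina3n took 6.58%, 1.55% and 0.499% of it in the flox/flox samples and 22.7%, 15.9% and 11.2% in the others, so the ranges were apart. Serpinh1, the largest single contributor in the flox/flox samples at 30.3%, 34.9% and 43.2%, took 25.4%, 31.3% and 31.7% in the CKO-labelled samples.

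A cell-bound and a neural inhibitor did not pass the test. Serpine2 (protease nexin 1, an inhibitor of thrombin and plasminogen activators, chromosome 1, 79772038 to 79836382) was at 10.0, 10.2 and 8.29 FPKM in the flox/flox samples and at 9.53, 16.6 and 8.57 FPKM in the others. The groups overlapped, and the 1.22-fold difference of the means turned to a log2 fold change of -0.060 without the second CKO-labelled sample. Serpini1 (neuroserpin, an inhibitor of Plat made mainly by neurons, chromosome 3, 75464800 to 75549830) was at 4.90, 2.93 and 2.44 FPKM against 2.03, 1.71 and 2.04 FPKM. All 3 CKO-labelled samples were below all 3 flox/flox ones, with a 1.78-fold lower mean, a log2 fold change of -0.56 ± 0.21 (SE), at a limma adjusted p of 0.0712. Its highest library was the one with the high neuronal markers, without which the ratio of the means went from 0.562 to 0.717 and the log2 fold change to -0.33 (limma adjusted p of 0.107). The part of those cells in the difference was not tested.

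Among the proteases these inhibitors meet are the plasminogen activators Plat (tissue type) and Plau (urokinase type). Of 6 proteases of plasminogen activation 3 were tested, 0 were higher and 1, Plat, was lower. Plat was at 11.05, 12.8 and 13.5 FPKM in the flox/flox samples and at 6.22, 6.92 and 4.59 FPKM in the others, and the groups did not overlap. Its means were 12.4 ± 1.25 and 5.91 ± 1.19 FPKM (SD, n = 3), with a log2 fold change of -0.97 and a limma adjusted p of 0.00348. Plau had means of 2.55 ± 1.11 and 1.34 ± 0.557 FPKM and a limma adjusted p of 0.122, and its groups overlapped.

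Vitronectin (Vtn), an adhesive protein of plasma and matrix, was the 1 gene that fell among the receptors and cofactors of serpins. Its level was 23.6, 24.3 and 17.0 FPKM in the flox/flox samples and 3.09, 5.12 and 5.65 FPKM in the CKO-labelled samples, with no overlap. The log2 fold change was -2.03 with a limma adjusted p of 0.00091. Vtn is also made by pericytes, and of 7 pericyte or smooth muscle markers tested 4 were lower, with a summed level of 291 to 340 FPKM against 148 to 183 FPKM, and their part in the Vtn difference was not tested. The urokinase receptor gene Plaur had means of 2.34 ± 0.636 and 4.09 ± 3.68 FPKM and overlapped between groups, with a limma adjusted p of 0.516.

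Of 20 tested receptors and cofactors of serpins 3 were higher and 1, Vtn, was lower, with a median log2 fold change of 0.12. Lrp1, the endocytic receptor that clears serpin and protease complexes, went from 17.1 ± 1.37 to 29.8 ± 4.43 FPKM (SD, n = 3, limma adjusted p of 0.0057). Lrp8, a related lipoprotein receptor, was at 0.358, 0.119 and 0.0912 FPKM in the flox/flox samples and at 3.81, 3.24 and 2.75 FPKM in the others. It passed the filter only through the CKO-labelled samples (limma adjusted p of 0.000465). The integrin subunit gene Itgb5, part of a vitronectin receptor, went from 37.3 ± 2.40 to 61.8 ± 8.67 FPKM with a limma adjusted p of 0.0064.

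Serpina3n, an acute phase inhibitor of granule proteases such as granzyme B, was higher in every CKO-labelled sample. Serpina3n (gene ID 20716, chromosome 12, 104372887 to 104380593, plus strand) was at 20.7, 4.59 and 1.22 FPKM in the flox/flox samples and at 114, 89.3 and 44.6 FPKM in the CKO-labelled samples. The groups did not overlap, although the flox/flox samples themselves spread widely. The means were 8.83 ± 10.4 and 82.5 ± 35.0 FPKM (SD, n = 3), a 9.35-fold gap and a log2 fold change of 3.59 ± 0.80 (SE), at a limma adjusted p of 0.0128. Without the first flox/flox sample, which is also the one with the neuronal and Schwann cell markers, the fold was 28.4.

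Serpina3n is induced through gp130 receptors, STAT3 and glucocorticoids. Of 16 genes listed for these signals 12 were tested, and 7 were higher and 3 lower, beside 24.4% and 16.0% of all genes tested. Stat3, Il6ra and the ligand genes Il6, Lif, Osm and Il11 were each either not tested or not called. The median log2 fold change of the 12 was 0.87. Without the first or the second flox/flox sample 4 were higher. The shared receptor subunit gene Il6st (gp130) was at 34.1, 34.9 and 34.1 FPKM in the flox/flox samples and at 81.6, 79.6 and 75.7 FPKM in the others. Both groups were tight, with a log2 fold change of 1.18 and a limma adjusted p of 0.000391. The oncostatin M receptor gene Osmr went from 4.41 to 13.3 FPKM with a limma adjusted p of 0.00511. Fkbp5, a glucocorticoid target, went from 6.35 to 43.1 FPKM with a limma adjusted p of 0.000939, and Cebpd, an acute phase transcription factor, from 8.89 to 19.0 FPKM with 0.00171. Socs3, the feedback inhibitor of the pathway, went from 4.61 to 8.90 FPKM with 0.035, and lost its call in 4 of the 6 fits that left out 1 library. Clcf1 and Cebpb, also called higher, likewise each lost their call in 4 of these 6 fits. The cardiotrophin gene Ctf1 fell by 1.21 on the log2 scale. The receptor gene Lifr and the glucocorticoid receptor gene Nr3c1 fell by 0.73 and 0.51, and Nr3c1 lost its call in 3 of those 6 fits.

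Of 17 other acute phase genes 5 were tested. Among these 3 were higher and 0 lower, beside 24.4% and 16.0% of all genes tested, with a median log2 fold change of 1.27. Lcn2 (lipocalin 2) was at 2.13, 2.48 and 1.25 FPKM in the flox/flox samples and at 110, 43.8 and 22.2 FPKM in the others, with the same library highest as for Serpina3n. Saa3, a serum amyloid gene expressed outside the liver, went from 0.945 to 7.86 FPKM with a limma adjusted p of 0.00326, and passed the filter only through the CKO-labelled samples. Ceruloplasmin (Cp) went from 12.9 to 33.1 FPKM with a limma adjusted p of 0.00612. Of 9 hepatocyte markers 1, Ahsg, was tested and it was higher, with means of 1.47 and 6.39 FPKM. It made up most of the summed level, 2.50 to 3.30 FPKM against 4.19 to 11.8 FPKM, while Alb had means of 0.154 and 0.0331 FPKM and Apoa1 was at 0 in every CKO-labelled sample. The 8 macrophage markers summed to 336 to 463 FPKM and 342 to 410 FPKM, and 0 of 8 were called.

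The other 2 tested genes of the chromosome 12 cluster, Serpina3g and Serpina3f, had lower means in the CKO-labelled samples and were not called. Serpina3g (gene ID 20715, 104202406 to 104208198, plus strand), an intracellular inhibitor known from T cells, was at 9.73, 10.8 and 2.96 FPKM in the flox/flox samples and at 2.92, 3.55 and 1.77 FPKM in the others. The groups overlapped through the third flox/flox sample. The mean was 2.85-fold lower in the CKO-labelled samples, with a log2 fold change of -1.12 ± 0.43 (SE), at a limma adjusted p of 0.0791. Of the stretches of 150 bases in its transcripts 24.8% also occur in another annotated gene, Gm56487, so reads may be split between them.

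Serpina3f was at 1.02, 4.05 and 0.946 FPKM against 1.11, 0.968 and 0.450 FPKM, with its 1 high value in the flox/flox sample that also held the high T or NK markers. The ratio of the means, 2.38-fold lower in the CKO-labelled samples, went from 0.421 to 0.859 without that library, and the part of T or NK cells in it was not tested. Within a library Serpina3n stood to Serpina3g as 2.12, 0.425 and 0.413 in the flox/flox samples and as 38.9, 25.2 and 25.2 in the CKO-labelled samples (exact permutation p of 0.1, two-sided, which is the smallest that 3 against 3 can give, and 0.2 after adjustment over the 4 ratios examined). This ratio restates the differences of both genes given above.

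The chromosome 12 cluster held 23 members over 798 kb. Of these 3 were tested, with Serpina3n alone called, 15 were low with some reads and 5 had no read. The 4 low members that reached 0.5 FPKM in some library all lie in clade A. Each reached it only in CKO-labelled samples, so the rule that picked them favours higher values there. Serpina3i had 33, 25 and 2 reads in the flox/flox samples and 62, 67 and 36 reads in the others, with no overlap in FPKM. Serpina9 had 7, 2 and 5 reads against 37, 26 and 18 reads, again with no overlap. Serpina3m had 0 reads in all 3 flox/flox samples and 48, 5 and 10 reads in the others, at least 21.5-fold higher when 3 reads over the group are taken as the floor.

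The scaled read ratio between groups was 2.81 (95% exact interval 2.08 to 3.84) for Serpina3i and 5.91 (3.33 to 11.3) for Serpina9. Serpina3c had 20, 10 and 4 reads against 54, 41 and 13 reads, with a ratio of 3.25 (2.19 to 4.93), and its groups overlapped. These intervals cover counting error only and not the spread between hearts. The liver inhibitors of this cluster were nearly silent. The alpha-1 antitrypsin genes Serpina1a to Serpina1e had at most 6 reads in any library, and the corticosteroid-binding globulin gene Serpina6 had 4 reads in 1 library.

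Clade B held the member with the smallest p-value. Serpinb1c, a mouse paralog of the neutrophil elastase inhibitor gene Serpinb1a (gene ID 380839, chromosome 13, 33065201 to 33126773, minus strand), had 15, 8 and 6 reads in the flox/flox samples and 1686, 1585 and 1445 reads in the CKO-labelled samples. This is a level of 0.127, 0.0874 and 0.0584 FPKM against 15.8, 15.8 and 14.7 FPKM. The gene was thus close to silent in every flox/flox sample and near 15 FPKM, with a spread of 0.634 FPKM (SD), in every CKO-labelled sample. The scaled read ratio was 166 (95% exact interval 116 to 248, counting error only), and the log2 fold change was 3.91 ± 0.09 (SE), at a limma adjusted p of 2.33e-05. Serpinb1c was called in all 21 alternative fits.

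Serpinb1a itself (chromosome 13, 33026075 to 33037189) was at 4.17, 1.25 and 1.26 FPKM in the flox/flox samples and at 1.84, 1.62 and 0.642 FPKM in the others. The groups overlapped, with a log2 fold change of -0.37 and a limma adjusted p of 0.467. Without the first flox/flox sample the sign turned, with a log2 fold change of 0.032. The other paralog, Serpinb1b, had 25, 0 and 0 reads against 4, 9 and 0 reads.

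Serpinb9 encodes an intracellular inhibitor of granzyme B, and Serpinb9b is a related gene of the same cluster. Serpinb9 (gene ID 20723, chromosome 13, 33181044 to 33201938, plus strand) was at 4.67, 7.04 and 4.52 FPKM in the flox/flox samples and at 11.2, 15.1 and 14.6 FPKM in the others. The groups did not overlap and the spread within each was small, 5.41 ± 1.41 against 13.6 ± 2.11 FPKM (SD, n = 3), a 2.52-fold difference. The log2 fold change was 1.20 ± 0.18 (SE), at a limma adjusted p of 0.00312.

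Serpinb9b (gene ID 20706, chromosome 13, 33211397 to 33224571, plus strand) had 6, 1 and 16 reads in the flox/flox samples and 1237, 248 and 130 reads in the CKO-labelled samples. In FPKM this was 0.0752, 0.0161 and 0.230 against 17.1, 3.65 and 1.95, with the same library highest as for Serpina3n. The means differed by 70.8-fold, by 26.2-fold without the first CKO-labelled sample and by 166-fold without the third flox/flox sample. The log2 fold change was 2.51 ± 0.62 (SE), at a limma adjusted p of 0.0184, and the call was lost without the second or the third flox/flox sample and with no filter on low genes.

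The target protease of Serpinb9 was not called higher. Of 11 leukocyte granule proteases 3 were tested, and 0 were higher and 0 lower at an adjusted p under 0.05. Gzmb was at 1.09, 7.42 and 0.651 FPKM in the flox/flox samples and at 0.808, 0.400 and 0.487 FPKM in the others, with its high value in the library with the high T or NK markers. Gzma was at 1.34, 11.8 and 2.33 FPKM against 0.524, 0.556 and 0.434 FPKM, where the groups did not overlap but the limma adjusted p was 0.0657. Gzma was called lower without the second flox/flox sample, with a log2 fold change of -0.89 (limma adjusted p of 0.0292), and without the first (0.0284), while Gzmb without the second no longer passed the filter. The ratio of Serpinb9 to Gzmb was 4.29, 0.949 and 6.94 in the flox/flox samples and 13.9, 37.7 and 30.0 in the others. Its two-sided exact permutation p was 0.1, the smallest that 3 against 3 can give, and 0.2 after adjustment over the ratios examined. It restates the differences of both genes given above.

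The Serpinb6 genes code for inhibitors of cathepsin G and similar proteases. Serpinb6b (gene ID 20708, chromosome 13, 33140797 to 33163050, plus strand) was at 20.3, 23.1 and 19.0 FPKM in the flox/flox samples and at 30.6, 28.2 and 29.3 FPKM in the others. The 1.41-fold difference was modest but the spread was small, 20.8 ± 2.13 against 29.4 ± 1.20 FPKM (SD, n = 3), with a log2 fold change of 0.48 ± 0.11 (SE), at a limma adjusted p of 0.0138. The call was lost without the third flox/flox sample, with quantile scaling and with mitochondrial genes left out of the scaling.

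Serpinb6a (gene ID 20719, chromosome 13, 34101901 to 34186777, minus strand) was at 55.5, 37.2 and 34.2 FPKM against 75.1, 59.1 and 50.8 FPKM. The groups overlapped, with a 1.46-fold difference and a limma adjusted p of 0.0952. Without the first flox/flox sample Serpinb6a was called higher (limma adjusted p of 0.0296). The gene overlaps Nqo2 on the opposite strand, whose mean went from 10.0 to 4.25 FPKM, and 9.98% of its stretches of 150 bases are shared with its overlapping genes. The sources used here do not say whether counting used the strand, so some reads could belong to either gene. Serpinb8, an inhibitor of furin, was at 1.37, 1.43 and 1.19 FPKM against 2.04, 1.51 and 1.37 FPKM, with overlap and a limma adjusted p of 0.361.

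By position, the called clade B genes lie in 1 cluster, which also holds 6 of the 7 tested clade B genes. The chromosome 13 cluster held 16 members over 1161 kb (33026075 to 34186777), of which 6 were tested, 4 were higher, 2 were not called, 5 were low with some reads and 5 had no read. The 4 called higher, Serpinb1c, Serpinb6b, Serpinb9 and Serpinb9b, are neighbours on both strands. Of these, Serpinb1c and Serpinb9b passed the filter only through the CKO-labelled samples. Among all genes tested 24.4% were called higher. Wrnip1, a gene beside the cluster that encodes no serpin, was at 14.1, 13.6 and 14.1 FPKM against 15.0, 17.1 and 16.9 FPKM, with no overlap. It was not called (log2 fold change of 0.21, limma adjusted p of 0.115). Inside the span lie 2 other protein-coding genes, Nqo2 and Ripk1, both overlapping Serpinb6a. Nqo2 was called lower, with a log2 fold change of -1.07 (limma adjusted p of 0.000474). Ripk1 was not called, with a log2 fold change of 0.039 (limma adjusted p of 0.84). The chromosome 1 cluster held 12 members over 748 kb, of which only Serpinb8 was tested and 0 were called. There Serpinb10, known from blood-forming cells, had 8, 18 and 12 reads in the flox/flox samples and 0 in each of the others.

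**Figure D3:**
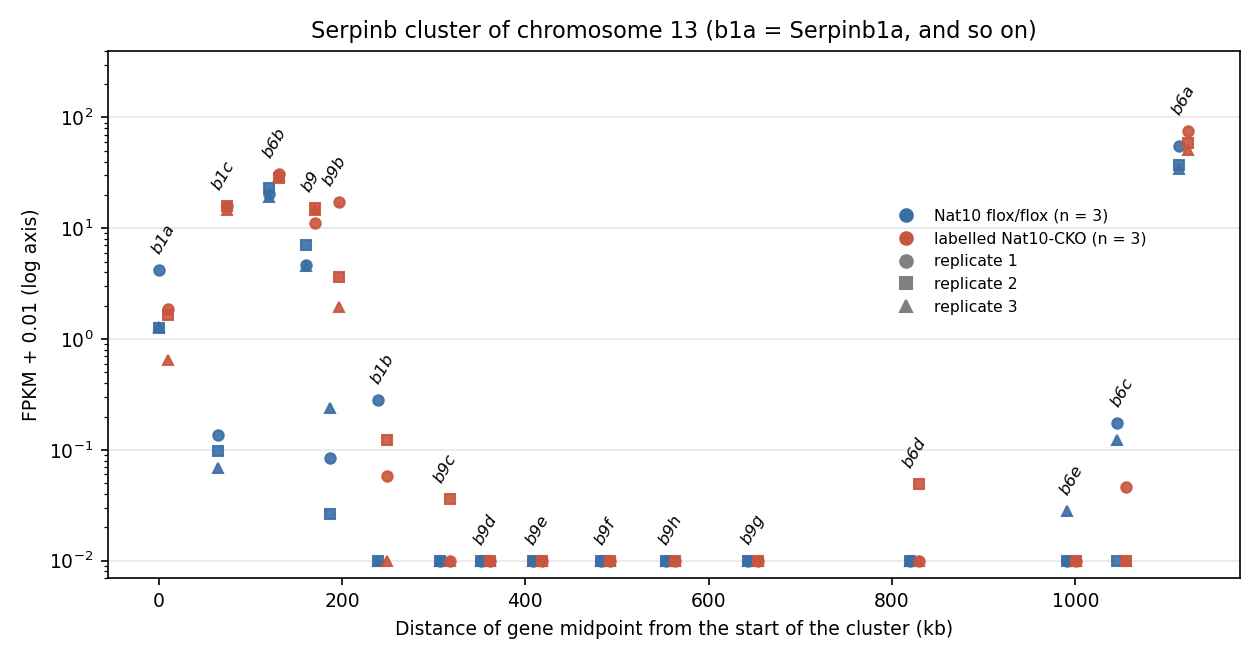
FPKM plus 0.01 on a log axis against the distance in kb of each gene's midpoint from the start of the chromosome 13 cluster, 1 point per library. Serpinb1c and Serpinb9b go from near the floor to over 1 FPKM in the CKO-labelled samples, whereas Serpinb1a, at the start of the cluster, overlaps between groups.

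The summed level of the epithelial and keratinocyte markers was 0.406 to 6.95 FPKM in the flox/flox samples and 10.2 to 24.0 FPKM in the others. Krt8 and Krt18 carried this sum, with means of 0.324 and 0.265 FPKM against 1.93 and 16.2 FPKM, and as the 2 tested members they passed the filter only through the CKO-labelled samples. Cdh1 had means of 1.63 and 0.0527 FPKM, Epcam, Sftpc and Scgb1a1 were at 0 in every CKO-labelled sample, and Krt5 and Krt14 were at most 0.0571 FPKM in any library. The neutrophil markers summed to 6.79 to 21.6 FPKM and 3.98 to 28.1 FPKM, and 0 of 4 tested were called. The part of either cell type in the Serpinb differences was not tested.

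The sequence before a RefSeq start of transcription is shown for the 2 members that were near 0 in the flox/flox samples. It is also shown for Serpina3n and Serpina3g, which share a cluster, so that the pairs can be set side by side. Each is 250 bases long, runs 5′ to 3′ on the gene's strand, and comes from RefSeq promoter windows (GRCm38.p6), placed on GRCm39 by its 1 exact match. Capitals mark a TATA box (TATAAA) or a STAT site (TTCNNNGAA). The windows of Serpinb1c are chr13:33082124-33082373 and chr13:33124584-33124833 on the minus strand, both inside the gene as the authors' table gives it, and that of Serpinb9b is chr13:33211147-33211396 on the plus strand. Those of Serpina3n and Serpina3g are chr12:104372717-104372966 and chr12:104202156-104202405 on the plus strand. The Serpina3n window ends 0.08 kb inside the gene as the authors give it.
Serpinb1c, first window: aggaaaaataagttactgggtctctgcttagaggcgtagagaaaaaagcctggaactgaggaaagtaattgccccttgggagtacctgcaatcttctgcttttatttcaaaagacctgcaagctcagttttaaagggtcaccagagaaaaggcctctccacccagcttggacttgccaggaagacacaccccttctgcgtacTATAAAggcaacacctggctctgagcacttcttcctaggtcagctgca
Serpinb1c, second window: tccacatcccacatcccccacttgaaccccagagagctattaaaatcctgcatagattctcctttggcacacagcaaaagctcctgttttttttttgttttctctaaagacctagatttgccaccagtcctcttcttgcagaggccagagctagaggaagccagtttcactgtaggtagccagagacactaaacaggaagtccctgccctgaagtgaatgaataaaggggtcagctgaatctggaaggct
Serpinb9b: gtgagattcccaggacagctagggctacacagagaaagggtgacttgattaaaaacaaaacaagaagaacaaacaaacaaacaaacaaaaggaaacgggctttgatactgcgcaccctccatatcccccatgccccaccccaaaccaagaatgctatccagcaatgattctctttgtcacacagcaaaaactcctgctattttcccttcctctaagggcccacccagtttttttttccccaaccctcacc
Serpina3n: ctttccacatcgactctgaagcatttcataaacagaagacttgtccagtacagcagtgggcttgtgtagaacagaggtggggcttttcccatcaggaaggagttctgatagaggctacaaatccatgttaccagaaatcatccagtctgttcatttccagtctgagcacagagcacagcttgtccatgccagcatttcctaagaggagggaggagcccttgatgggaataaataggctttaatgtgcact
Serpina3g: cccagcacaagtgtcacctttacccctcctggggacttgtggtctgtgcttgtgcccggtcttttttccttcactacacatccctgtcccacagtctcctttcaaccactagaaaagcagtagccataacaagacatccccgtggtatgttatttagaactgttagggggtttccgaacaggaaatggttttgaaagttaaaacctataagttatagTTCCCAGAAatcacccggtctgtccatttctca

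Of the 15 tested members 13 had such a window, in 16 windows, and Serping1 and Serpinb1a had none. On both strands the windows were searched for an AP-1 site (TGANTCA), a cAMP response element (TGACGTCA), a STAT site (TTCNNNGAA), an E-box (CACGTG) and a TATA box (TATAAA), which are present in 6.75%, 1.55%, 7.02%, 6.02% and 12.4% of the 32851 windows of all genes. The 7 windows of the 6 called members held 0 AP-1 and 0 STAT matches. Of the 9 windows of members that were not called 4 held a STAT match, namely both overlapping windows of Serpina3f, that of Serpina3g and 1 of Serpinb6a, and that of Serpinb8 held an AP-1 match. The TATA box shown in the first Serpinb1c window lies near its 3′ end, and the first Serpina3f window held the other TATA match. The windows of Serpinb1c, Serpinb6b and Serpinb9 end 2.19 to 44.65 kb inside the gene as the authors give it, and 1 of Serpinb6a 66.7 kb. The motif counts of called and uncalled members therefore do not compare like positions. A match describes the letters of these windows only.

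Serpinh1 and Serpinf1, members without inhibitory function, are tied to matrix. Serpinh1 (gene ID 12406, chromosome 7, 98994582 to 99002480, minus strand) was at 95.2, 103 and 106 FPKM in the flox/flox samples and at 127, 176 and 126 FPKM in the others. All 3 CKO-labelled samples lay above the flox/flox ones, with means of 101 ± 5.59 and 143 ± 28.7 FPKM (SD, n = 3), a 1.41-fold difference and a limma adjusted p of 0.0537. Serpinf1 (gene ID 20317, chromosome 11, 75300855 to 75313449, minus strand) was at 16.4, 13.6 and 15.2 FPKM against 24.9, 41.2 and 20.1 FPKM. It was 1.90-fold higher without overlap, with a log2 fold change of 0.83 ± 0.25 (SE), at a limma adjusted p of 0.0379, and this call was lost in 10 of the 21 alternative fits.

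HSP47 binds folding procollagen, and of 28 tested genes of collagen folding and modification 3 were higher and 1 lower, with a median log2 fold change of 0.10. The prolyl 3-hydroxylase gene P3h2 was at 1.48, 1.34 and 1.49 FPKM in the flox/flox samples and at 8.60, 18.4 and 10.9 FPKM in the others, for a log2 fold change of 2.42 and a limma adjusted p of 0.000717. P4ha2, a prolyl 4-hydroxylase subunit gene, went from 12.7 to 21.9 FPKM (limma adjusted p of 0.00215), and the lysyl hydroxylase gene Plod3 from 14.1 to 19.1 FPKM (0.0237, lost in 4 of the 6 fits that left out 1 library). Sec23a, a coat subunit for procollagen export, fell by 0.44, and its call too was lost in 4 of those 6 fits. Without the third CKO-labelled sample 8 genes of the list were higher.

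Col1a1 was at 64.4, 65.8 and 59.1 FPKM against 152, 124 and 54.2 FPKM, so the third CKO-labelled sample lay below all others (limma adjusted p of 0.182). Col3a1 had means of 136 and 131 FPKM and a limma adjusted p of 0.714. The ratio of Serpinh1 to Col1a1 was 1.48 to 1.79 in the flox/flox samples and 0.837 to 2.32 in the others, so the second range enclosed the first, with a two-sided exact permutation p of 0.7.

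The complement regulator Serping1 (C1 inhibitor, gene ID 12258, chromosome 2, 84595704 to 84605778, minus strand) was the second most abundant member in the flox/flox samples by mean. It was at 68.2, 74.8 and 47.3 FPKM in the flox/flox samples and at 63.0, 106 and 78.7 FPKM in the CKO-labelled samples. The groups overlapped, with a log2 fold change of 0.37 ± 0.24 (SE), at a limma adjusted p of 0.267. Of its target family 5 complement proteases were tested, and 1, Masp1, was higher, or 2 without the first CKO-labelled sample. Masp1, of the lectin pathway, was at 1.12, 1.07 and 1.16 FPKM against 6.95, 4.15 and 2.64 FPKM, with a log2 fold change of 1.32 and a limma adjusted p of 0.00899. C1s1, of the classical pathway, had means of 14.7 and 8.87 FPKM and a limma adjusted p of 0.159.

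The serpins of clotting and fibrinolysis made in the liver were close to absent. Serpinc1 (antithrombin) had at most 5 reads in a library, Serpinf2 (alpha-2 antiplasmin) at most 4, and Serpind1 (heparin cofactor II) 6, 7 and 10 reads against 6, 9 and 10 reads. None of the 7 coagulation proteases passed the filter either, so 0 were tested. Angiotensinogen (Agt), which has the serpin fold under another symbol, was at 2.67, 1.65 and 1.27 FPKM against 0.422, 0.746 and 3.99 FPKM, with overlap and a limma adjusted p of 0.664. Without the third CKO-labelled sample it was called lower, with a log2 fold change of -0.83 (limma adjusted p of 0.0487).

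Among other proteases that serpins meet, 12 were tested, and 1 was higher and 3 lower. The fits that left out 1 library called 1 to 2 higher and 1 to 3 lower. Prss23, a secreted serine protease, went from 2.83 to 6.75 FPKM with a limma adjusted p of 0.00434. Pcsk6, a proprotein convertase, fell by 1.24 on the log2 scale with a limma adjusted p of 0.0118. The other 2 that fell, Ctsh and Htra1, lost their calls in 4 of the 6 fits that left out 1 library.

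Inhibitors outside the family did not move in one direction. Of 26 named genes 25 were in the table and 13 were tested, and 3 were higher and 3 lower, with a median log2 fold change of -0.04. Leaving out 1 library called 2 to 3 higher and 1 to 3 lower, with the 1 lower without the third flox/flox sample. The metalloproteinase inhibitor gene Timp1 was at 3.42, 2.20 and 2.37 FPKM in the flox/flox samples and at 61.6, 41.1 and 26.3 FPKM in the others, with no overlap. Its log2 fold change was 3.52 with a limma adjusted p of 0.000451. The cystatin gene Cstb went from 18.4 to 48.5 FPKM with a limma adjusted p of 0.00763. Tfpi, the endothelial inhibitor of the tissue factor pathway, fell by 0.98 on the log2 scale with a limma adjusted p of 0.00349, beside the lower endothelial markers, whose part in it was not tested.

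**Figure D4:**
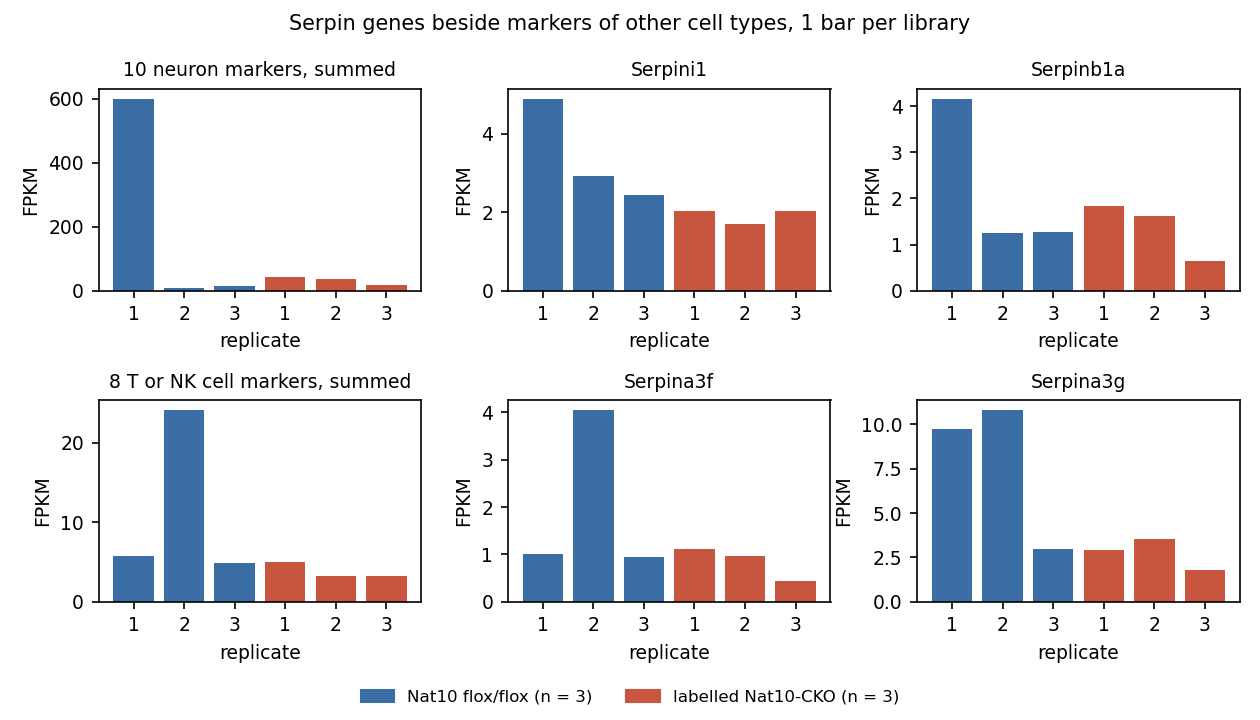
Bars, each from 0 and 1 per library, give the FPKM of Serpin genes beside the summed FPKM of marker lists of other cell types. The high neuronal sum sits in the first flox/flox sample and the high T or NK sum in the second.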

How the data were processed

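Poly-T selected RNA of heart tissue was made into directional libraries and sequenced as pairs of 150 bp, per the labels' protocols. The submitters' processing notes name HISAT2 2.2.1, the build GRCm39, featureCounts 2.0.6, CASAVA and DESeq2 1.42.0. The authors deposited FPKM for 46452 genes. FPKM times gene length gave whole reads for 100% of values (tolerance 0.01 read), and the library denominators equalled size factors. The sources used here do not say whether counting used the strand.

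Groups were compared over 11996 genes with a mean of at least 1 FPKM, with limma 3.58.1 (R 4.3.3, eBayes with a trend) on log2(FPKM + 1), a scale that understates changes of low genes. Tests were two-sided, with Benjamini-Hochberg adjustment over all genes tested and a threshold of 0.05. Folds are ratios of mean FPKM, and intervals at 95% are exact and cover counting error only. The genes named are Nat10, every expressed member, low members reaching 0.5 FPKM in a library, Agt, and of each partner list the 4 tested genes with the smallest adjusted p plus Plau, Plat, Plaur, Vtn, Lrp1, Col1a1, Col3a1, Il6st, Socs3, Lcn2 and Timp1. Some of these are left out of the text, and other named genes were chosen after their values were seen. One gene that the rule would take is not reported here and enters no count of members. The members, lists and alternatives were chosen with earlier results of these data known. Alternatives covered the pseudocount, filter, scaling, trend, array weights, voom on recovered reads, a minimum fold, a replicate block and each library left out. The test was also run on simulated data with few changed genes and an even spread between libraries. That setting is simpler than these libraries and does not show how the test behaves on them. Figures used matplotlib 3.10.9 in Python 3.11.15.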

Additional observations from a re-analysis of the deposited data

How the results depend on the processing

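Serpina3n and Serpinb9 kept their call in every alternative except a minimum absolute log2 fold change of 1, under which 234 of all genes and 1 member, Serpinb1c, were called. Array weights called 10 members higher and 1, Serpini1, lower, and 6939 of all genes against 4856. That fit weighted the second CKO-labelled sample at 5.63, against 0.242 for the first and 0.584 for the third. Leaving mitochondrial genes out of the scaling, or quantile scaling, called 4 higher. The fits that left out 1 library called 3 to 6 members higher, 0 to 2 lower and 3285 to 5055 of all genes. Over them the log2 fold change of Serpinb1a ran from -0.57 to 0.032, turning without the first flox/flox sample, and that of Serpine2 from -0.060 to 0.38, turning without the second CKO-labelled sample. Serpinh1 was called with protein-coding totals (limma adjusted p of 0.0161), without a trend (0.0491), with array weights (0.00246) and without the first CKO-labelled sample (0.0386). The cause of these changes was not tested.

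With the replicate number as a block 6 members were called higher and 1, Serpina3g, lower, with Serpinf1 lost (limma adjusted p of 0.059) and Serpinb6a gained (0.0219). Same-numbered libraries deviated together with correlations of 0.0649, 0.0373 and 0.105 across genes. Pairs with unlike numbers ran from -0.116 to 0.0722, the highest being the second flox/flox sample with the third CKO-labelled one. With 3 libraries a group these weak correlations cannot decide whether same-numbered samples share more than a number. Scaling protein-coding genes to a common total moved the median log2 fold change of all genes from 0.03 to 0.17 and called 7 members higher. With 3 libraries a group, precision for the low members is limited by reads, since 25 of the 29 with reads never reached 0.5 FPKM.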

Other observations

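A pseudogene of the chromosome 12 cluster, outside the 62 protein-coding members, had its highest value in the library with the high neuronal and Schwann cell markers. Serpina3h, a transcribed pseudogene, was at 2.04, 0.354 and 0.110 FPKM in the flox/flox samples and at 0.542, 0.225 and 0.158 FPKM in the CKO-labelled samples. Serpina3n had its highest flox/flox value in the same library, and the part of those cells in either value was not tested. The other Serpin pseudogene, Serpina4-ps1, had 0 reads in all 6 libraries. Serpinb6c, a member of the chromosome 13 cluster, had 10, 0 and 6 reads in the flox/flox samples and 2, 0 and 0 in the others, too few for a comparison.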
